A study of Mus musculus with 6 samples.

Results

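The 10 genes described here are outputs and feedback inhibitors of the RAS-ERK pathway: the ERK phosphatase genes Dusp4 and Dusp6, the Sprouty genes Spry1, Spry2 and Spry4, the SPRED genes Spred1 and Spred2, and Etv1, Etv4 and Etv5, the PEA3 group of ETS transcription factors. They were taken by symbol from count tables of 6 libraries that list 23284 symbols. The set was chosen because Dusp6, Etv5 and Etv1 were higher when Paupar, a long noncoding RNA, was knocked down. Differences of these genes between knockdown and control are therefore a description, with no test. Of the 10, 8 had enough reads to be measured, and Spry2 and Spred1 had 0 counts in all 6 libraries. Against their control means, the knockdown means of Dusp6, Spry4 and Etv4 were 2.69 to 3.02 times as high, that of Etv5 2.06 times, that of Spred2 1.44 times and that of Etv1 1.39 times. Spry1 was at 0.992 of its control mean, and the values of Spry1 and Dusp4 overlapped between the groups.

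ERK is the last kinase of a relay that runs from growth factor receptors through RAS, RAF and MEK to the nucleus. Active ERK raises transcription of several of its own inhibitors. Some dual-specificity phosphatases remove the phosphates that activate ERK, and Sprouty and SPRED proteins act upstream, between the receptor and RAF. The PEA3 factors depend on the same pathway: the repressor capicua (Cic) keeps their genes low until ERK signalling relieves it, and the ubiquitin ligase COP1 (Rfwd2 in these tables) marks the proteins for degradation. In beta cells, COP1 and its PEA3 substrates have been tied to insulin secretion.

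All samples were MIN6, an insulin-secreting mouse insulinoma line whose tumour of origin was driven by a viral T antigen. An ASO is an antisense oligonucleotide: 3 libraries came from cells that received the control ASO (control KD, called controls here) and 3 from cells that received the Paupar ASO (Paupar KD). The labels give neither dose nor time after treatment, and they do not say whether replicates were separate cultures. The p-values given here thus reflect differences among libraries that may be technical. Library totals ran from 16973622 to 28693863 counts. No row is named Paupar, and the extent of its knockdown is not analysed here. The controls had a biological coefficient of variation of 4.96%, and the knockdown libraries one of 18.7%. Within Paupar KD, replicates 1 and 3 were the most unlike pair. Levels are given as CPM, the count of a gene relative to its library's total, scaled by TMM. The 12 beta cell markers were all detected, with a sum of 33266 to 37414 CPM in the controls and 39056 to 57423 CPM after knockdown. The sum of 7 other endocrine genes, mostly Gcg, ran from 70.9 to 80.4 CPM in the controls and from 45.1 to 130.04 CPM after knockdown. The sum of 7 acinar and duct genes was at most 1.66 CPM, with Cpa1, Prss1, Ptf1a, Sox9 and Cftr at 0. That of 10 mesenchymal, endothelial and immune genes was at most 4.05 CPM, with Col3a1, Cdh5 and Ptprc at 0. The part of these marker levels in the results was not tested.

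RefSeq promoter windows of 300 bases around annotated transcription starts (table build GRCm38.p6) were found for 7 of the 10 genes. Dusp4, Spry4 and Etv4 had none, so they are absent from what follows on windows. Each of the 9 windows matched the mm9 genome exactly once on its chromosome. All 7 windows that belong to measured genes are shown, so that windows with and without the marked letters can be compared. Capicua binds words of 8 letters, TGAATGAA, TGAATGGA, TCAATGAA and TCAATGGA. Capitals mark their cores, TGAATG and TCAATG, on either strand (CATTCA and CATTGA when read on the other strand).
Dusp6, chr10:98725615-98725914, plus strand: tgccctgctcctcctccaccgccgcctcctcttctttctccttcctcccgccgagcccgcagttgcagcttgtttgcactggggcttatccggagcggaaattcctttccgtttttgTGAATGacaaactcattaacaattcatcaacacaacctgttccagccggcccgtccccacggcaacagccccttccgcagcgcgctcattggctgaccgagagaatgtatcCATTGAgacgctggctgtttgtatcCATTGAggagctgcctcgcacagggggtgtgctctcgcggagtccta
Spry1, chr3:37538619-37538918, plus strand: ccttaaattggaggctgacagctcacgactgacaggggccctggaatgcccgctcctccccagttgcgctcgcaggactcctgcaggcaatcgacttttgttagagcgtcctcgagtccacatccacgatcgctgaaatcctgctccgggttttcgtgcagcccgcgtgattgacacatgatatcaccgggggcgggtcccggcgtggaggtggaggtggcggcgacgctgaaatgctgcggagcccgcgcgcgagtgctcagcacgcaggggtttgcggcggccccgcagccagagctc
Spred2, chr11:19824195-19824494, plus strand: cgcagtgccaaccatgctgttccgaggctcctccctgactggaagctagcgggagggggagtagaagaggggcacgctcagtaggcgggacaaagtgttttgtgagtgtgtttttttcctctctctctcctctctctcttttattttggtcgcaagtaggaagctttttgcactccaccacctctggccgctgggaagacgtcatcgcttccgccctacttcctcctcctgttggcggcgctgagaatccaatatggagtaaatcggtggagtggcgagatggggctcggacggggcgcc
Etv1, chr12:39506419-39506718, plus strand: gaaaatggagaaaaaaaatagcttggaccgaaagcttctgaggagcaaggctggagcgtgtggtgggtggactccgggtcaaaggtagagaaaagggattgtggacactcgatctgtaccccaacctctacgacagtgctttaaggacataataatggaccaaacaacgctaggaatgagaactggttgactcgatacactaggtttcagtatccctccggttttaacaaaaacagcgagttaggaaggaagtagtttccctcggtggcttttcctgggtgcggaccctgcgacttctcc
Etv1, chr12:39510048-39510347, plus strand: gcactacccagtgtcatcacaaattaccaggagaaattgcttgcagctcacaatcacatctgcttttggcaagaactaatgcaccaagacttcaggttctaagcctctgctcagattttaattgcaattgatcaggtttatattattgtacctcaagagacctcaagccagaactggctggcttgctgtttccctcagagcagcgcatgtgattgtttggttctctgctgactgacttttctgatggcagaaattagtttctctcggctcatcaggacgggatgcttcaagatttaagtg
Etv5, chr16:22438392-22438691, minus strand: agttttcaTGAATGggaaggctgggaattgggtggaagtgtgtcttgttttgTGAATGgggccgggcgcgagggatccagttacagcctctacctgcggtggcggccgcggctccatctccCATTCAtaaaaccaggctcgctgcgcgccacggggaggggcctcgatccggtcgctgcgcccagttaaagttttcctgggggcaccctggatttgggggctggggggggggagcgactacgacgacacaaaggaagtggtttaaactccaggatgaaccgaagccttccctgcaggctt
Etv5, chr16:22439594-22439893, minus strand: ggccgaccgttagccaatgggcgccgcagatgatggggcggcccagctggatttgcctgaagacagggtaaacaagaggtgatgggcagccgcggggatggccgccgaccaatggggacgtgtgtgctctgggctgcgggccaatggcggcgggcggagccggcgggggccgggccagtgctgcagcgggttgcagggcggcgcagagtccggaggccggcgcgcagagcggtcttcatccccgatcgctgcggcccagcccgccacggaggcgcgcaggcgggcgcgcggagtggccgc

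The Dusp6 window held a full word of 8 letters, TCAATGGA, at positions 227 and 252 of its 300 bases, both on the opposite strand. It also held the core TGAATG at position 118. Of 32851 RefSeq windows of this length, 3.84% held at least 1 of the 4 full words and 0.183% held 2 or more. The cores and the words TCAATGAA and TCAATGGA were added to the search after the sequences were seen. The shares of windows given here are therefore a description only. The Etv5 window at chr16:22438392-22438691 held the core TGAATG 3 times, at positions 9, 53 and 122, the last on the opposite strand, and 0 full words. Of all windows, 12.7% held TGAATG at least once and 0.170% at least 3 times, and 8.67% held TCAATG. With both cores counted, 19.9% of all windows held at least 1 and 0.460% held 3 or more. The other Etv5 window and the windows of Etv1, Spred2, Spry1 and Spred1 held neither core. The window of Spry2, a gene with 0 counts here, held TCAATGAA once, at position 197 on the opposite strand.

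Taken singly, TGAATGAA was in 1.30%, TGAATGGA in 1.21%, TCAATGAA in 0.749% and TCAATGGA in 0.670% of all windows, and each contains its core. The Etv5 window with 3 cores lies wholly inside the gene and touches no exon annotated in GENCODE M1, whereas 50 bases of the Dusp6 window are exonic. Searched on both strands and found in 0 of the 9 windows were CCGGAAGT, an ETS word (3.89% of all windows), TGANTCA, the AP-1 word (7.81%), TGACGTCA, the CREB word (1.79%), and the CArG box of SRF (1.63%). The windows of Etv1 and Spred2 had 0 matches to any word searched. Whether any word goes with the levels after knockdown was not tested. A match is a string of letters in a window, and binding was not measured here.

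In the controls the measured genes covered a wide range of levels. Per kilobase of annotated exon, a scale on which genes can be compared, Dusp4 was highest at 23.6 ± 3.40 CPM per kb (SD, n = 3), above 76.4% of the tested genes. Etv1 followed at 14.9 ± 1.67 CPM per kb, above 64.1% of them. Etv5 at 5.90 ± 0.945 and Spred2 at 5.15 ± 0.403 CPM per kb came next, and their control values overlapped. Spry1 stood at 2.43 ± 0.131, Dusp6 at 1.72 ± 0.275, Spry4 at 0.904 ± 0.239 and Etv4 at 0.456 ± 0.134 CPM per kb, each without overlap with its neighbours in the order. These 6 genes lay below the median tested gene, at 9.30 CPM per kb. With the longest transcript as the length, Etv1 was at 20.4 and Etv4 at 0.591 CPM per kb, and the order of the 8 was the same.

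After knockdown the upper part of that order was the same, with Dusp4 at 30.04 ± 8.15 and Etv1 at 20.8 ± 3.10 CPM per kb, which overlapped. Etv5 followed at 12.1 ± 0.835 and Spred2 at 7.40 ± 0.330 CPM per kb. The lower part differed: Dusp6, at 4.76 ± 1.61 CPM per kb, lay next, before Spry4 at 2.43 ± 1.16 and Spry1 at 2.41 ± 0.379. Values of Dusp6 and Spry4 overlapped, as did those of Spry4 and Spry1. Etv4 was lowest in both groups, at 1.38 ± 0.490 CPM per kb after knockdown.

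**Figure D1:**
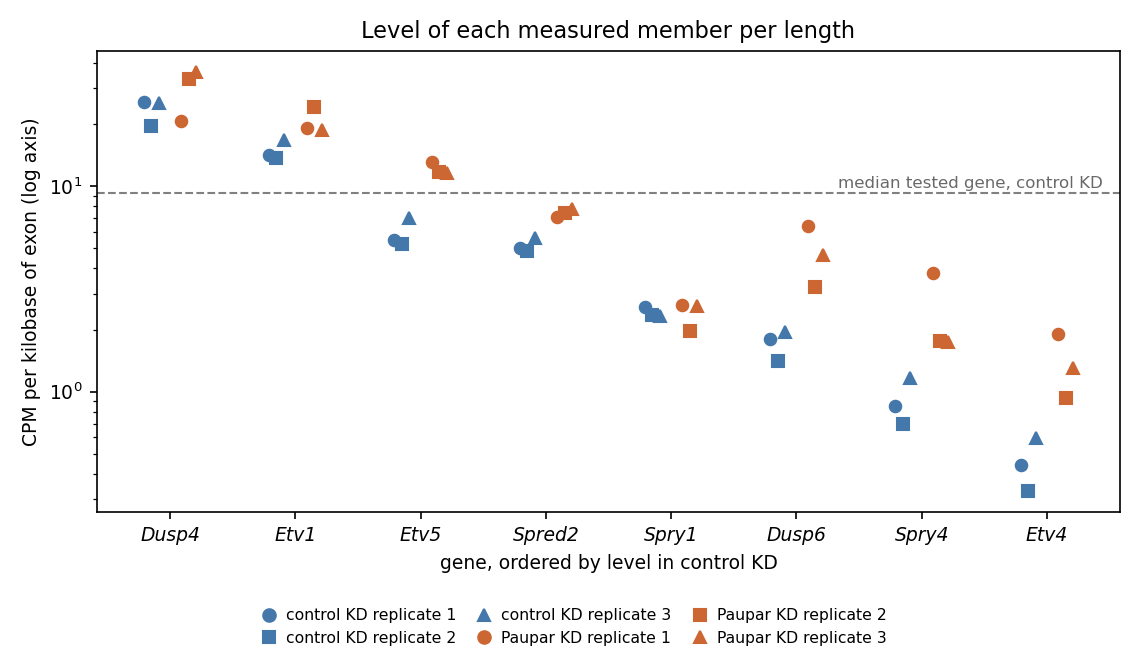
Level of the 8 measured genes in CPM per kilobase of exon (log axis), 1 point per library, ordered by their control KD means; the dashed line is the median tested gene in control KD. Dusp4 and Etv1 lie above that line in all 6 libraries, and Etv5 only in the 3 Paupar KD libraries, from 11.6 to 13.1 CPM per kb.

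Dusp6 encodes a cytoplasmic phosphatase that is specific for ERK (chromosome 10, 98725865 to 98730122, plus strand; all coordinates are mm9). It had 114, 93 and 156 counts in the controls, replicates 1 to 3 in order here and below, and 305, 184 and 301 after knockdown. These are 5.05, 3.96 and 5.45 CPM against 18.0, 8.999 and 12.9 CPM. The groups did not overlap, and even the lowest knockdown library, replicate 2, lay above the highest control. Its means were 4.82 ± 0.769 CPM and 13.3 ± 4.51 CPM (log2 fold change 1.46 ± 0.26 SE). In bulk RNA, more RNA per cell and more cells that hold the RNA cannot be told apart.

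Dusp4 encodes a nuclear phosphatase of ERK and related kinases (chromosome 8, 35870351 to 35882948, plus strand). The controls held 70.6, 54.0 and 69.5 CPM and the knockdown libraries 56.9, 91.1 and 98.9 CPM. Knockdown replicates 2 and 3 were above every control, while replicate 1 lay inside the control range (log2 fold change 0.35 ± 0.20 SE). Per length, the ratio of Dusp4 to Dusp6 was 13.0 to 14.3 in the controls. It was 3.23, 10.3 and 7.81 in the knockdown libraries. Replicate 1, with the smallest ratio, had the highest Dusp6 and the lowest Dusp4 value of its group.

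Sprouty proteins restrain signalling between receptor tyrosine kinases and RAF. Spry4 (chromosome 18, 38745922 to 38760922, minus strand) stood at 3.90, 3.19 and 5.34 CPM in controls, compared with 17.3, 8.12 and 8.02 CPM after knockdown. All knockdown values lay above the controls, and replicate 1 was the highest by far. Its means were 4.145 ± 1.09 CPM and 11.1 ± 5.32 CPM (log2 fold change 1.41 ± 0.34 SE). Spry1 (chromosome 3, 37538869 to 37543520, plus strand) had 7.49, 6.90 and 6.77 CPM in controls, compared with 7.67, 5.72 and 7.59 CPM after knockdown. Its groups overlapped (log2 fold change -0.01 ± 0.16 SE), and its highest and lowest values were both in knockdown libraries. Per length, Spry4 was at 0.293 to 0.4996 of Spry1 in the controls and at 1.43, 0.899 and 0.669 of it after knockdown. Spry2 (chromosome 14, 106291166 to 106296036, minus strand) had 0 counts throughout. A count of 0 allows up to 3 counts, which is 0.105 to 0.177 CPM in these libraries, for counting error only.

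SPRED proteins bring neurofibromin, which switches RAS off, to the membrane. Spred2 (chromosome 11, 19824378 to 19924029, plus strand) read 23.1, 22.3 and 25.9 CPM among controls, versus 32.6, 34.3 and 35.7 CPM for the knockdown. The knockdown values lay close together and above every control, with means of 23.8 ± 1.86 CPM and 34.2 ± 1.52 CPM (log2 fold change 0.52 ± 0.10 SE). Spred1 (chromosome 2, 116947110 to 117008015, plus strand) had 0 counts throughout, with the same upper limit as Spry2. In all, 5886 symbols were at 0 in every library, and how reads were assigned to symbols is not given in the sources used here.

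The PEA3 factors share an ETS DNA-binding domain, and their levels were very unequal. Etv5 (chromosome 16, 22381382 to 22439792, minus strand) read 22.5, 21.4 and 28.6 CPM among controls. After knockdown it read 53.8, 48.2 and 47.5 CPM. The knockdown values were alike and lay far above the controls, with means of 24.2 ± 3.88 CPM and 49.9 ± 3.42 CPM (log2 fold change 1.04 ± 0.13 SE). Etv1 (chromosome 12, 39505967 to 39594802, plus strand) had the largest counts of the group, with 83.4, 81.2 and 99.2 CPM among controls. Its knockdown values were 113, 143 and 111 CPM, highest in replicate 2 and without overlap (log2 fold change 0.48 ± 0.13 SE). Etv4 (chromosome 11, 101631056 to 101646685, minus strand) rests on few reads, with 31, 24 and 53 counts in controls and 100, 59 and 94 after knockdown. These are 1.37, 1.02 and 1.85 CPM against 5.90, 2.89 and 4.03 CPM, again without overlap (log2 fold change 1.57 ± 0.32 SE).

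The makeup of the PEA3 signal can be compared per length. Etv1 made up 69.0 to 71.3% of it in the controls and 56.0%, 65.8% and 59.4% after knockdown. Etv5 made up 27.0 to 28.6% and then 38.4%, 31.7% and 36.5%. Etv4 made up 1.70 to 2.44% and then 5.57%, 2.51% and 4.09%. The Etv1 share was thus lower, and the Etv5 and Etv4 shares higher, in each knockdown library than in any control. The summed level of the 3 genes was 19.3 to 24.4 CPM per kb in the controls and 34.1, 37.0 and 31.8 CPM per kb after knockdown. These shares and sums use the annotated exon length and depend on it. With the longest transcript as the length, the control means of Etv1, Etv4 and Etv5 were 20.4, 0.591 and 6.09 CPM per kb. With the exon length they were 14.9, 0.456 and 5.90 CPM per kb.

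**Figure D2:**
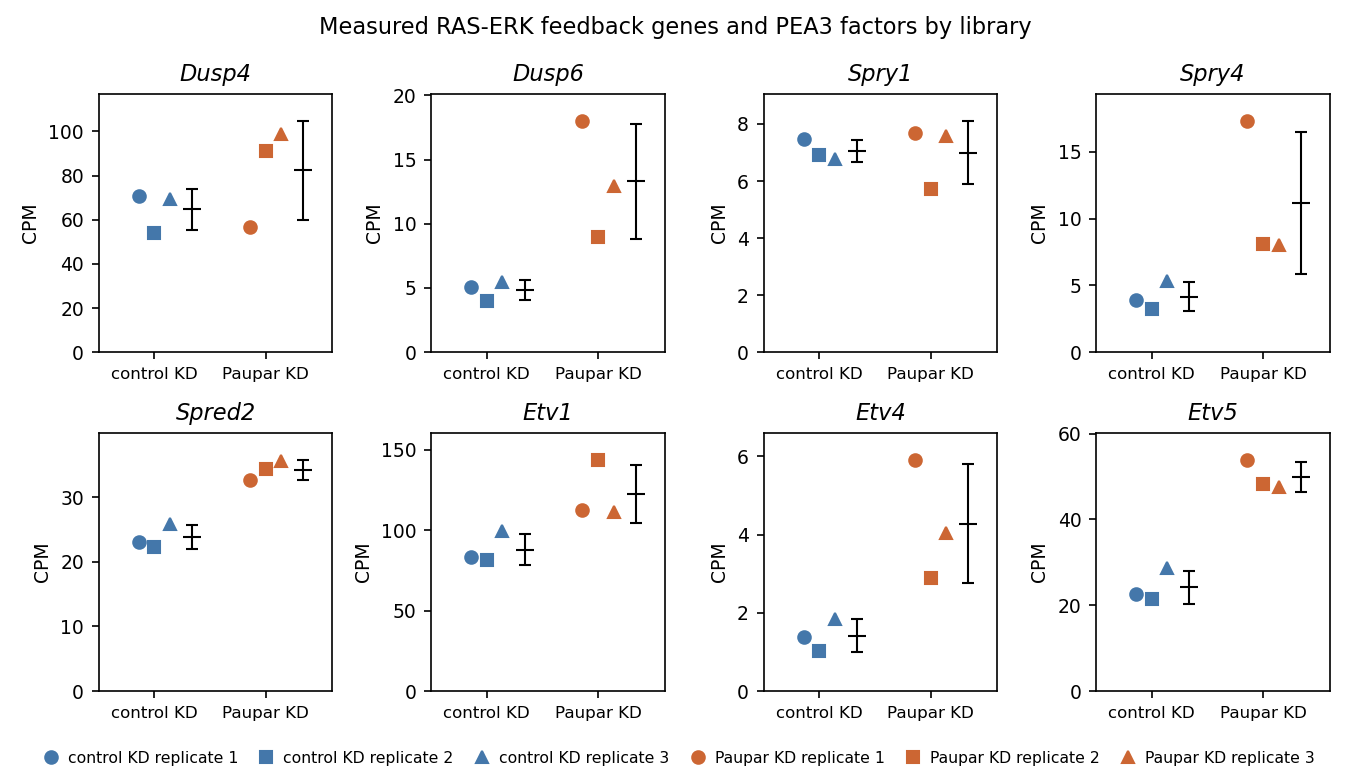
CPM of the 8 measured genes in each library, with the mean and SD of each group beside the points and every vertical axis starting at 0. Paupar KD lies above control KD without overlap for Dusp6, Spry4, Spred2, Etv1, Etv4 and Etv5, and the groups overlap for Dusp4 and Spry1.

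Of the 8 measured genes, 6 had knockdown values above every control and 0 had all of them below. Over all 13039 tested genes, 13.7% were higher without overlap. The median log2 fold change was 0.78 over the 8 and 0.01 over all tested genes. Nothing is read from these counts, because the set was chosen on this contrast. All 8 were above the low-count limit of 0.436 CPM in every library, so none was measured through 1 group alone. Precision differed among the 8. For Etv4, counting error alone gives a coefficient of variation of 16.7% at the control depth, against 29.4% observed between controls. For Etv1 these were 2.13% and 11.2%, so counting was a smaller share of its spread.

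The controls also differed among themselves. Replicate 3 was the highest and replicate 2 the lowest control for Dusp6, Spry4, Spred2, Etv1, Etv4 and Etv5. This order of the 3 controls was present in 14.9% of all tested genes. On the log2 CPM scale, replicate 3 differed from the control mean by 0.19 for Dusp6, 0.39 for Spry4, 0.40 for Etv4 and 0.25 for Etv5. Replicate 2 differed from it by -0.26, -0.34, -0.40 and -0.16 for the same genes. Dusp4 and Spry1 were each highest in control replicate 1. The order was noticed after the values were seen.

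Across the knockdown libraries the genes did not share 1 order. Dusp6, Spry4 and Etv4 were highest in replicate 1, at log2 differences from the control mean of 1.89, 2.07 and 2.03. In replicate 2 they stood at 0.90, 0.99 and 1.02, and in replicate 3 at 1.42, 0.97 and 1.49. Etv5 was more even, at 1.16, 1.004 and 0.98, as was Spred2, at 0.46, 0.53 and 0.59. Etv1 was highest in replicate 2, at 0.71, beside 0.36 and 0.34 in replicates 1 and 3. Dusp4 stood at -0.17 in replicate 1 and at 0.50 and 0.62 in replicates 2 and 3.

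Leaving out each of the 6 libraries in turn gave log2 fold changes of 1.18 to 1.67 for Dusp6, 0.94 to 1.64 for Spry4 and 1.27 to 1.82 for Etv4. The lowest value of each of these 3 genes was the one without Paupar KD replicate 1. The ranges were 0.95 to 1.18 for Etv5, 0.34 to 0.57 for Etv1 and 0.47 to 0.59 for Spred2. Dusp4 ran from 0.20 without Paupar KD replicate 3 to 0.55 without Paupar KD replicate 1. Spry1 ran from -0.08 to 0.11 and was the 1 gene of the 8 without a stable sign.

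**Figure D3:**
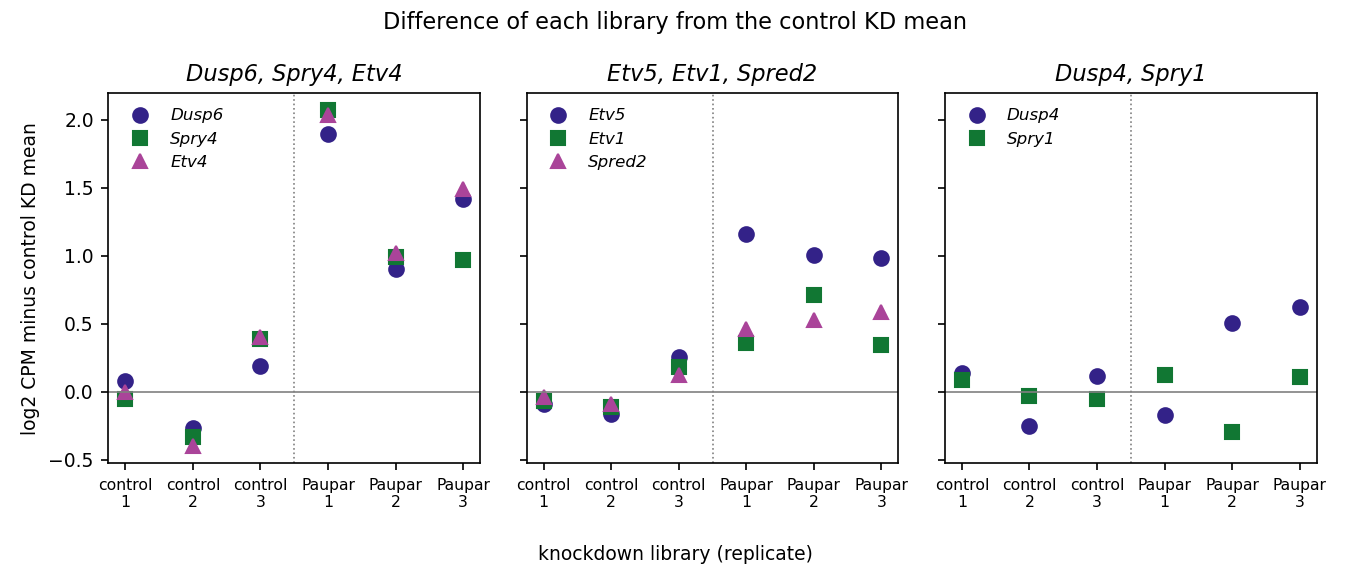
Difference of log2 CPM from the control KD mean in each of the 6 libraries, 1 symbol per gene, in 3 panels. Dusp6, Spry4 and Etv4 reach 1.89 to 2.07 in Paupar KD replicate 1, where Dusp4 is at -0.17, and 6 of the 8 genes are highest among the controls in replicate 3.

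The genes with the most similar pattern were found by the mean absolute gap between these log2 differences over the 6 libraries, among 12239 genes with a mean of at least 1 CPM. Nearest to Dusp6 were Etv4 (0.13), Spry4 (0.19) and BC051628 (0.22), and Etv5 was in place 10 (0.27). Nearest to Etv5 were Rdh12, a retinol dehydrogenase gene (0.09), 1700030J22Rik (0.11) and Cyb561, which encodes a cytochrome of secretory granule membranes (0.11). Nearest to Etv1 were 4930513N10Rik (0.04), Kcnk16, a beta cell potassium channel gene (0.05), and Ttll9, of the tubulin ligase-like family (0.07). Spred2 was in place 29 for Etv1 (0.10). The nearest genes to Dusp6 were thus mostly of the set, and those to Etv5 and Etv1 were outside it. The distances use the contrast by which the set was chosen and are a description.

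The rest of the pathway was examined in 7 lists, from receptors to targets, which hold none of the 10 genes. The lists were chosen with earlier results of these data known, and they leave out a set chosen on this contrast. Of the 211 symbols in the lists, 161 were tested. With edgeR's quasi-likelihood test, adjusted by Benjamini-Hochberg over all genes, 0 of the 161 were called, against 0.046% of all tested genes. At an unadjusted p under 0.05 there were 13 higher and 15 lower, 17.4% of the lists, against 17.7% of all genes. Values did not overlap for 20 higher and 22 lower, 26.1% of the lists, against 27.1% of all genes. Limma-voom called 0 of the 161, against 0.046% of all genes, and DESeq2 called 3 higher and 4 lower, 4.35% of the lists, against 3.9% of all genes. Those 7 were Igf1r, Maff and Map2k3, a kinase gene of the p38 pathway (higher), and Ntrk3, Sh2b3, Dusp15 and Elf3 (lower). Map2k3 is named after its values were seen. The list shares were thus close to those of all genes. The median log2 fold change was -0.02 over the lists and 0.01 over all tested genes, of which the middle 50% ran from -0.16 to 0.17.

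Receptor tyrosine kinases and their ligands start the relay. Of the log2 fold changes of 26 tested, 14 lay above 0 and 12 below, median 0.02. Ntrk3, the neurotrophin-3 receptor gene, had 16.6 ± 1.40 CPM in the controls against 9.69 ± 1.58 CPM after knockdown. Its adjusted p was 0.101 by edgeR and 0.000886 by DESeq2. Igf1r, the receptor gene for insulin-like growth factor, had 61.0 ± 6.99 CPM in the controls against 103 ± 23.0 CPM after knockdown, with no overlap. Its adjusted p was 0.133 by edgeR and 0.00361 by DESeq2.

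The kinases between receptor and nucleus come next. Of the log2 fold changes of 39 adaptor, RAS, RAF, MEK and ERK genes, 18 lay above 0 and 21 below, median -0.02. Mapk3, which encodes ERK1, had 130.0 ± 2.11 CPM in the controls against 134 ± 24.2 CPM after knockdown (edgeR's adjusted p 0.895). The smallest p-values of the list belonged to Rasgrf2, an exchange factor that loads RAS with GTP, and Rps6ka2, a kinase activated by ERK. Rasgrf2 had 45.2 ± 2.86 CPM in the controls against 57.1 ± 4.83 CPM and Rps6ka2 159.6 ± 6.44 CPM in the controls against 208 ± 31.3 CPM, with adjusted p-values of 0.173 and 0.185 by edgeR. Phosphorylation was not measured, so these RNA levels do not give kinase activity.

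Other inhibitors and other dual-specificity phosphatases lay on both sides of 0. Of the log2 fold changes of 26 further negative regulators, 11 lay above 0 and 15 below, median -0.05. Values did not overlap for 3 higher and 5 lower of the 26, against 27.1% of all tested genes, and edgeR called 0 of them. Rasa3, a RAS-inactivating protein gene named after its values were seen, had the largest log2 fold change, without overlap, with 37.9 ± 1.44 CPM in the controls against 58.7 ± 18.7 CPM (edgeR's adjusted p 0.1999). The smallest p-values were those of 2 lower genes. Errfi1, an inhibitor of the EGF receptor, had 91.5 ± 4.09 CPM in the controls against 71.9 ± 8.39 CPM, and Sh2b3, an adaptor that dampens cytokine and growth factor signals, 31.7 ± 1.59 CPM in the controls against 23.4 ± 2.82 CPM. Their adjusted p-values were 0.182 and 0.151 by edgeR and 0.0809 and 0.0389 by DESeq2. Of those of 17 other dual-specificity phosphatases, 8 lay above 0 and 9 below, median -0.02. Dusp15 had 35.2 ± 1.16 CPM in the controls against 21.98 ± 3.91 CPM, with an adjusted p of 0.109 by edgeR and 0.00179 by DESeq2. Dusp10, a phosphatase of the stress kinases JNK and p38, had 43.8 ± 1.08 CPM in the controls against 56.2 ± 7.24 CPM (edgeR's adjusted p 0.184).

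Other genes that ERK is known to induce were spread around 0. Of the log2 fold changes of 29 tested, 13 lay above 0 and 16 below, median -0.02. Egr1, an early-response zinc finger gene, had 59.6, 52.7 and 37.3 CPM in the controls and 12.7, 12.9 and 49.7 CPM after knockdown. Knockdown replicates 1 and 2 lay below every control and replicate 3 lay among them (edgeR's adjusted p 0.332). Dusp6, of the set chosen on this contrast, was above every control in all 3. Fos, a partner in AP-1, had 20.3, 17.4 and 15.5 CPM and then 12.9, 10.3 and 24.0 CPM (edgeR's adjusted p 0.789). Ccnd1, the cyclin D1 gene, was low, with 1.51 ± 0.0420 CPM in the controls against 0.971 ± 0.243 CPM (edgeR's adjusted p 0.266). The smallest p-values belonged to Sh2b3, which this list shares, and Maff, a small MAF factor gene, with 17.1 ± 0.614 CPM in the controls against 22.7 ± 2.11 CPM (adjusted p 0.157 by edgeR and 0.0478 by DESeq2).

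Of the log2 fold changes of 12 ETS factors outside the PEA3 group, 5 lay above 0 and 7 below, median -0.06. Elf3, an epithelial ETS factor, had 38.7 ± 1.44 CPM in the controls against 30.7 ± 1.24 CPM, and Elf2 57.1 ± 1.07 CPM in the controls against 66.1 ± 1.42 CPM, with adjusted p-values of 0.151 and 0.236 by edgeR and 0.0457 and 0.184 by DESeq2. Another 14 genes were listed as regulators of the PEA3 factors, mostly of the capicua and COP1 complexes. Of their log2 fold changes, 6 lay above 0 and 8 below, median -0.04. Cic had 141, 133 and 150.2 CPM in the controls and 126, 136 and 146 CPM after knockdown, with overlap (edgeR's adjusted p 0.778). Rfwd2, the COP1 gene, had 32.8 ± 0.954 CPM in the controls against 30.4 ± 3.62 CPM (edgeR's adjusted p 0.626). The smallest p-values belonged to Dda1 and Cul4a, parts of the ligase complex in which COP1 works. Dda1 had 82.7 ± 5.49 CPM in the controls against 101 ± 5.51 CPM and Cul4a 169.5 ± 4.34 CPM in the controls against 185 ± 9.83 CPM, with adjusted p-values of 0.196 and 0.424 by edgeR.

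**Figure D4:**
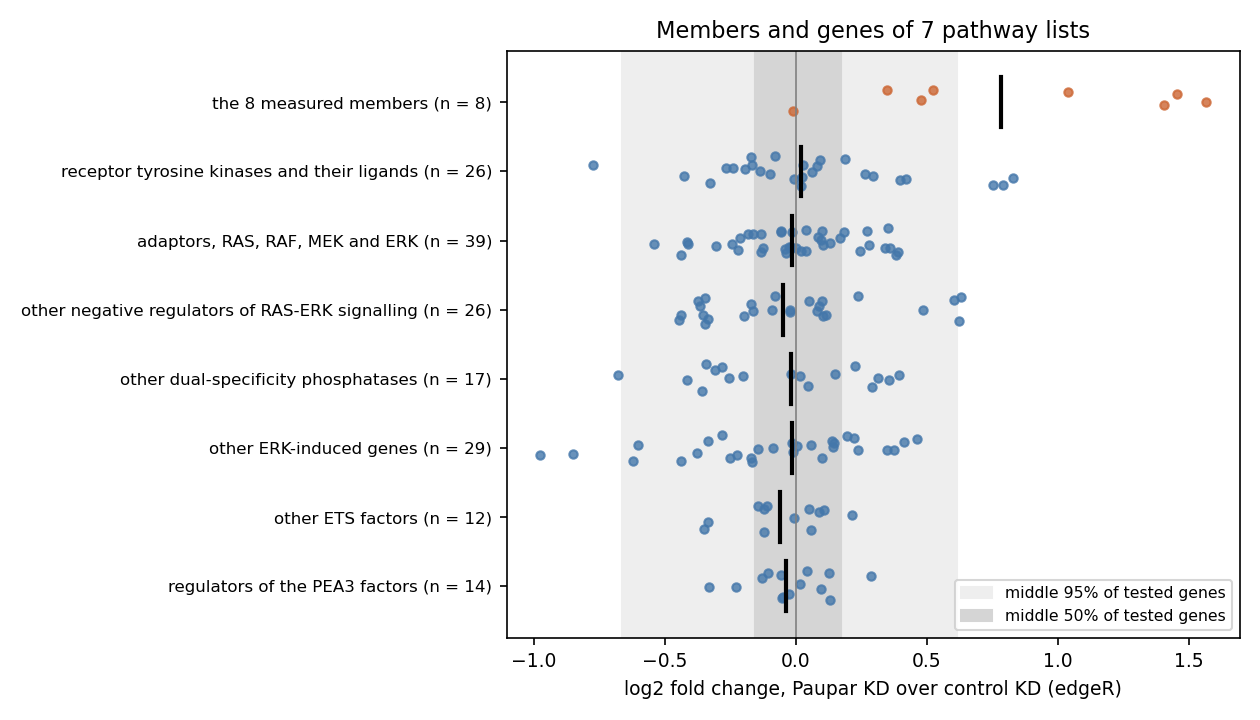
Log2 fold change, Paupar KD over control KD, of the 8 measured genes of the set (orange) and of the tested genes of 7 pathway lists (blue), 1 point per gene, with medians as black bars and grey bands for the middle 50% and 95% of all tested genes. The list medians lie between -0.06 and 0.02, and Etv5, Spry4, Dusp6 and Etv4, of the set chosen on this contrast, lie at 1.04 to 1.57.

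Calls in these lists differed with the library left out. Without Paupar KD replicate 1, edgeR called 3 list genes, Igf1r (higher) and Ntrk3 and Sh2b3 (lower), 1.85% of the lists against 1.91% of all genes. Without Paupar KD replicate 3 it called 7 higher and 16 lower, 13.9% of the lists against 10.3% of all genes. The 16 included Egr1, at a log2 fold change of -1.96 (edgeR's adjusted p 0.00342), and Fos, at -0.62 (edgeR's adjusted p 0.0484). The library left out was the one in which Egr1, at 49.7 CPM, lay among the controls and Fos, at 24.0 CPM, above them. In the same setting Dusp6 and Spry4, of the set chosen on this contrast, were at 1.47 and 1.59. Leaving out any other single library gave 0 calls in the lists and 0 calls over all genes.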

How the data were processed

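The authors deposited whole-number read counts per gene symbol, 1 table per library and not normalized. Total RNA was purified with the RNeasy Mini kit and libraries were built with TruSeq, per the labels' protocols. The submitters' processing notes name CASAVA 1.8.2, HISAT2, HTSeq, DESeq2 and build mm9, with roles, strand setting and annotation not given in the sources used here. A gene and an overlapping antisense partner can therefore not be told apart.

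Here, filterByExpr (minimum count 10) left 13039 genes, which were scaled by TMM and tested with edgeR 4.0.16 in R 4.3.3 (robust quasi-likelihood, group as the only term, Benjamini-Hochberg threshold 0.05). DESeq2 1.42.0, limma-voom (limma 3.58.1), other factors, other filters, a replicate block and leaving out each library were alternatives. SE is the log2 fold change over the root of F, and log2 CPM carries a prior count of 2. Exon lengths and positions are those of GENCODE M1 on mm9, present for 97.3% of tested genes. That annotation may differ from the authors' own. The models and motif search were tested on simulated data. All libraries of a group differed beyond sampling noise (mean chi-square per gene at least 3.46).

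The members and lists were chosen with earlier results of these data known, and the capicua cores and the TCAATGAA and TCAATGGA words were added to the search after the sequences were seen. Genes named are the 10 members, 7 fixed genes (Cic, Rfwd2, Mapk3, Egr1, Fos, Ccnd1 and 1 that is not reported here), the 2 smallest p-values per list where none passed, and the 3 nearest genes to Dusp6, Etv5 and Etv1.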

Additional observations from a re-analysis of the deposited data

How the results depend on the processing

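Under 15 alternatives, the 120 log2 fold changes of the 8 measured genes each moved by less than the spread between replicates. In the 6 that left out a library, a move beyond that spread was hardly possible, so this measure cannot show stability there. Spry4, at 1.41 with all libraries, was at 0.94 without Paupar KD replicate 1. The sign held for 7 genes, and not for Spry1. Of the 8, from a set chosen on this contrast, 7 had a positive value in the main result and 7 to 8 under the alternatives. In the main result, 6652 of all 13039 tested genes had a positive value. Over all genes, edgeR called 5 higher and 1 lower. Upper-quartile scaling gave 3 and 0. Testing every gene with a count gave 36 and 24, and requiring a mean of 1 CPM gave 2 and 0. DESeq2 gave 275 and 233, and the cause was not tested. A replicate block gave 1 and 0, with 0 genes of the lists called. Same-numbered libraries deviated together at r = 0.07, -0.01 and 0.01, so the numbers were not taken as pairs. Leaving out 1 library gave 0 to 611 higher and 0 to 745 lower: 123 and 128 if Paupar KD replicate 1 was dropped, 611 and 745 if Paupar KD replicate 3 was, and 0 and 0 otherwise. In edgeR's 4 fits with 0 calls, 564 to 1068 genes were higher and 553 to 994 lower at an unadjusted p under 0.05. Calls in the lists were 0 in the main result, 7 by DESeq2 and 0 to 23 with 1 library left out. These were 0%, 4.35% and 0 to 13.9% of the lists, against 0.046%, 3.9% and 0 to 10.3% of all genes. Depth limits Etv4 most, at 24 counts in its lowest library, and Spry2 and Spred1, at 0 counts, could not be compared.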
